A study of Mus musculus with 2 samples.

Results

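The BCL2 family decides at the mitochondrion whether a cell lives or dies, and 10 of its genes were followed here in mouse fetal liver erythroid progenitors that over-expressed a long noncoding RNA, ESlncRNA (also known as lincRNA-EPS). The members were taken by gene name from the non-control probes of the arrays: Bcl2, Bcl2l1, Mcl1, Bax, Bak1, Bid, Bad, Bcl2l11, Bbc3 and Pmaip1. They had 13 probes, out of 55681 probes on the array, and all 10 were among the 19882 genes or noncoding intervals that were bright enough to test. Lineage-negative cells of C57BL/6 fetal liver on day E14.5 of gestation were transduced either with the vector or with ESlncRNA, and GFP-positive cells were sorted. On each of 2 arrays, replicate 1 and replicate 2, RNA of the vector cells carried Cy3 and RNA of the ESlncRNA cells carried Cy5. The question that published work on this RNA asks of such cells is how it bears on their survival.

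Proteins of this family fall into groups that bind one another. Pro-survival members (BCL2, BCL-XL, MCL1) hold the effectors BAX and BAK in check, and once released the effectors open the outer mitochondrial membrane and let out cytochrome c. BH3-only members (BID, BAD, BIM, PUMA, NOXA) carry death signals, by occupying the groove of the pro-survival proteins or by activating the effectors. In red cell development BCL-XL, which is under the control of erythropoietin signalling and GATA1, keeps maturing erythroblasts alive, and MCL1 is needed at earlier stages.

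A probe is a short DNA that catches the labelled RNA of its gene. The letters of 3 of the member probes, which fall in coding sequence, are given. Bcl2, Bcl2l1 and Bcl2l11 were picked by name for this, and probes of the other members, Pmaip1 included, were not searched. Each probe shown holds at least 1 sense reading frame without a stop codon, which the brighter Bcl2l1 probe does not. Capitals mark glycine codons of the BH1 segment in Bcl2 (letters GGNGGN, found in 12.9% of the 55681 probes of this length) and the glycine and aspartate codons at the heart of the BH3 segment in Bcl2l11 (GGNGAN, in 17.9%), searched on the printed strand only, first match. No letters are marked in Bcl2l1, whose probe lies in the stretch that its short splice form lacks.
Bcl2: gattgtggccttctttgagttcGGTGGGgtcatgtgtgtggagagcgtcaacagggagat
Bcl2l1: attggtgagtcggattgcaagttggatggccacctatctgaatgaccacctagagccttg
Bcl2l11: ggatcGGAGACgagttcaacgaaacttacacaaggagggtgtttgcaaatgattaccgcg
The Bcl2 probe lies on chromosome 1 from 108608970 to 108609029 and this Bcl2l1 probe on chromosome 2 from 152655185 to 152655244, both on the reverse strand. The Bcl2l11 probe reaches from 127972893 to 127983988 on the forward strand of chromosome 2. Its 60 bases thus cover 11096 bases of genome and cross at least 1 intron. Positions come from the array's own annotation, which uses mm9.

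With ESlncRNA, transcripts of 8 of the 10 members were lower after loess normalization, 0 were higher and 2 did not pass the test (limma, Benjamini-Hochberg adjusted p under 0.05), but the direction of 5 of the 8 rests on the scaling of the arrays. Of all genes tested, 36.8% were called lower and 26.3% higher, 63.0% in all. Pmaip1 fell most, followed by the pro-survival genes Bcl2 and Bcl2l1, and these 3 were lower under every scaling tried. Mcl1, Bax, Bak1, Bad and Bbc3 were lower with loess and above 0 with median centring, where Mcl1 did not pass (limma adjusted p = 0.259). Bid and Bcl2l11 did not pass with loess. The median log2 ratio of ESlncRNA over vector was -0.33 over the 10 members, against -0.03 over all genes tested. With median centring these were 0.34 and 0.34, so the members as a group were then no lower than other genes.

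The arrays limit what can be read from these ratios. The RNA of each condition carried the same dye on both, so a dye effect of a probe and the effect of ESlncRNA cannot be told apart, and both arrays lay on 1 slide. Whether the replicates are separate cultures or animals is not stated in the labels. Over 120 probes printed 10 times, the arrays differed by a median of 0.0240 on the log2 scale, and the noise between spots alone gives 0.0247. Some genes differed far more than that: Slc4a1, an erythroid anion exchanger, gave 2220 and 322 in the vector channels and ratios of -0.45 and 1.48, and Alas2, an enzyme of heme synthesis, gave 1772 and 585. Whether the arrays hold separate RNA samples is therefore not known, and all p-values here rest on the scatter of 2 arrays, which may be technical. In sorted cells measured in bulk, fewer cells of a type and less RNA per cell cannot be told apart.

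Cell type markers moved too. All calls in this paragraph are after loess unless stated, where 36.8% of all genes tested were lower and 26.3% higher. All 15 granulocyte markers were lower (median -3.79), and their summed intensity was 1193220 to 1322730 in the vector channels and 74604 to 88351 in the ESlncRNA channels. S100a8 and S100a9 were 43.0-fold and 38.1-fold lower, while the smallest fall of the 15 was 1.23-fold. All 15 were still well above background with ESlncRNA on both arrays. With median centring 13 of the 15 were lower and 2 higher, beside 18.3% and 62.9% of all genes. With the processed signals, or with the channels as unpaired samples, 14 were lower and 0 higher. Of all genes, 23.7% were lower and 34.3% higher with the processed signals, and 28.9% and 17.3% with unpaired channels. Of 11 macrophage markers tested, all were lower (median -0.99), led by Fcgr3 and Csf1r. Their summed intensity was 16433 to 16695 with vector and 2335 to 2398 with ESlncRNA, where 6 were not well above background. C1qa, Cd163 and Timd4 were too dim to test. Of 7 mast cell and basophil markers 6 were lower and 1 higher (summed 51153 to 53956 and 24308 to 24912), led by Cpa3 and Hdc, and Fcer1a was too dim to test. All 10 megakaryocyte markers were lower (summed 78351 to 83065 and 20546 to 21685), led by Plek and Itgb3. Of 11 lymphocyte markers only 5 were bright enough, 4 lower and 1 higher (summed 2608 to 2707 and 775 to 847), with Cd79b and Il7r of smallest p. Of 14 erythroid markers 11 were higher and 3 did not pass (median 0.75, summed 342602 to 405977 and 576819 to 650874), led by Ermap and Rhag, so the labelled cell type was present in both channels. The part of these cells in the ratios of the BCL2 family was not tested.

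Bcl2, the founding pro-survival gene, is measured by the probe shown above (NM_177410). Its normalized intensity was 916 and 890 in the vector channels of replicates 1 and 2, and 449 and 411 in the ESlncRNA channels. Both vector values lay far above both ESlncRNA values. The log2 ratio was -1.07 ± 0.061 (SD, n = 2 arrays), a fall by a factor of 2.10 (limma adjusted p = 6.58e-06), with ratios of -1.03 and -1.11 on the single arrays.

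Bcl2l1 encodes BCL-XL, the pro-survival protein of late erythroblasts. Its brighter probe, on chromosome 2 from 152606404 to 152606463 (reverse strand, NM_009743), gave 5495 and 5668 with vector and 2653 and 2945 with ESlncRNA. The groups did not overlap. Its log2 ratio was -0.997 ± 0.075 (SD, n = 2 arrays; limma adjusted p = 1.05e-05). The second probe, the coding one shown above, gave 191 and 204 against 98.1 and 117, a ratio of -0.88 ± 0.11 (limma adjusted p = 2.94e-05). The probes differed from each other by 0.09 and 0.14 on the arrays with loess. Both were lower under every scaling, but the gap depends on the background correction and the scaling: the second probe stood at -1.48 and the brighter at -0.84 with the processed signals of Feature Extraction, at -1.37 and -1.01 with a normexp offset of 0, and at -0.69 and -0.40 with median centring.

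Mcl1, a pro-survival gene with a short-lived protein, had 2 probes about a kilobase apart on chromosome 3 (forward strand, NM_008562). The brighter, from 95466855 to 95466914, gave 14199 and 13655 with vector and 9270 and 8889 with ESlncRNA. Its log2 ratio was -0.62 ± 0.0029 (SD, n = 2 arrays; limma adjusted p = 6.75e-05) with loess and 0.10 with median centring, where it did not pass (limma adjusted p = 0.259). The other, from 95465543 to 95465602, gave 4039 and 4098 against 3224 and 3442 and a smaller ratio of -0.29 (limma adjusted p = 0.00277), which became 0.30 with median centring. This second probe did not pass with the processed signals (-0.12, limma adjusted p = 0.0978). With loess the ratio of this second probe stood 0.29 and 0.37 above that of the brighter probe on the arrays, a gap larger than the spread of either probe. The size of the Mcl1 change thus depends on the probe, and its sign on the scaling.

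**Figure D1:**
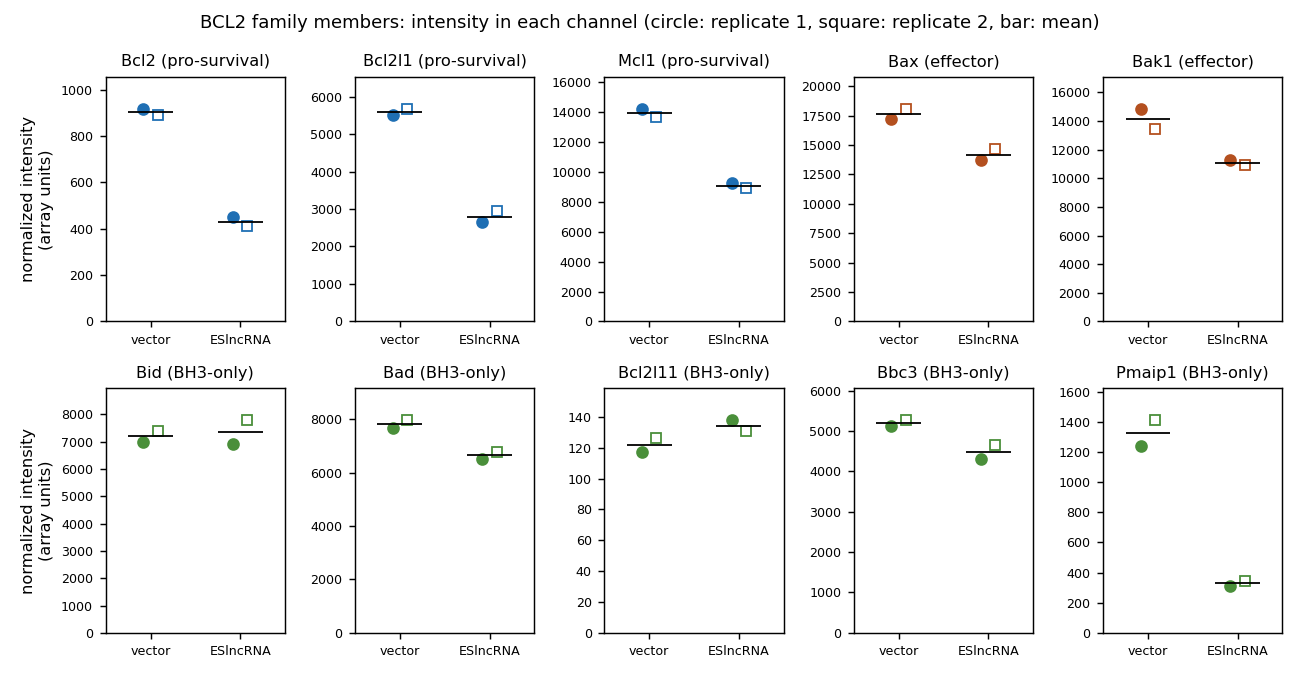
Normalized intensity of each member's brightest probe in the vector and ESlncRNA channels, on a linear axis from 0 in array units, with a circle for replicate 1, a square for replicate 2 and a bar for their mean. Vector and ESlncRNA values overlap for Bid, and how often they are apart over all genes was not counted. The axes differ between panels and the values are those after loess. With median centring Mcl1, Bax, Bak1, Bad and Bbc3 lie higher with ESlncRNA.

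Both effectors changed little. Bax, whose product inserts into the outer membrane on activation, is probed on chromosome 7 from 52717122 to 52717181 (reverse strand, NM_007527). It gave 17200 and 18058 with vector and 13700 and 14672 with ESlncRNA, which do not overlap. The ratio came to -0.31 ± 0.020 (SD, n = 2 arrays; limma adjusted p = 0.00161) with loess, but 0.45 with median centring, and the processed signals of Feature Extraction gave a value that did not pass (-0.19, limma adjusted p = 0.0516).

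Bak1, the effector that already sits in the mitochondrial membrane, is probed on chromosome 17 from 27156807 to 27156866 (reverse strand, NM_007523). Its values were 14832 and 13453 with vector and 11270 and 10893 with ESlncRNA. Replicate 1 was the higher in both groups, and the groups did not overlap. On the log2 scale the ratio was -0.35 ± 0.065 (SD, n = 2 arrays; limma adjusted p = 0.00129) with loess, and 0.38 with median centring. Bax and Bak1 had ratios 0.72 and 0.65 above that of Bcl2l1 on replicate 1, and 0.64 and 0.64 above it on replicate 2, so the effectors and BCL-XL changed unequally within each array.

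The BH3-only genes differed most among themselves, with ratios from -2.01 to 0.14. Pmaip1 encodes NOXA, which binds MCL1 and is a p53 target (chromosome 18, NM_021451). It gave 1243 and 1411 with vector and 312 and 345 with ESlncRNA. Every vector value was more than any ESlncRNA value by a wide margin. The log2 ratio was -2.01 ± 0.029 (SD, n = 2 arrays; limma adjusted p = 3.32e-07), a fall by a factor of 4.03, and 2.94% of all genes tested had a lower ratio. With median centring it was -1.60, and minus the median of all genes tested it stood at -1.98 (loess) and -1.94 (median centring).

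Bbc3 encodes PUMA, another p53 target, which binds all pro-survival members. Its probe on chromosome 7 from 16903403 to 16903462 (forward strand, NM_133234) gave 5125 and 5261 with vector and 4295 and 4650 with ESlncRNA. Its log2 ratio was -0.22 ± 0.054 (SD, n = 2 arrays; limma adjusted p = 0.00960) with loess. It was 0.40 with median centring and did not pass with the processed signals (-0.06) or with the channels taken as unpaired samples (adjusted p = 0.0503). The ratio of Pmaip1 minus that of Bbc3 was -1.74 on replicate 1 and -1.85 on replicate 2, so with loess both were lower, by unequal amounts.

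Bad, whose protein is switched off by survival signals through phosphorylation, had 2 probes on chromosome 19 (forward strand, NM_007522). The brighter, from 7026323 to 7026382, gave 7664 and 7956 with vector and 6526 and 6761 with ESlncRNA. Its log2 ratio was -0.23 ± 0.0020 (SD, n = 2 arrays; limma adjusted p = 0.00573) with loess and 0.43 with median centring. The second probe covers 486 bases of genome from 7016918 to 7017403 and thus crosses an intron. It gave 654 and 638 with vector and 599 and 504 with ESlncRNA. Its mean was alike, -0.23 (limma adjusted p = 0.0193), but its arrays gave -0.13 and -0.34. With the processed signals neither Bad probe passed (-0.08 and -0.07). The second probe also did not pass with a normexp offset of 0 (limma adjusted p = 0.0838), with the deposited values (0.0938) or with unpaired channels (0.0926).

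Bid, which links death receptors to the mitochondrion once a caspase cuts its product, is probed on chromosome 6 from 120843464 to 120843523 (reverse strand, NM_007544). It gave 6995 and 7394 with vector and 6915 and 7780 with ESlncRNA. The groups overlapped, and the arrays gave opposite signs, -0.017 and 0.073. The log2 ratio was 0.03 with a 95% interval from -0.09 to 0.15 (limma adjusted p = 0.651) after loess. With median centring it was 0.69 and was called higher.

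Bcl2l11 encodes BIM, which binds every pro-survival member and removes blood cells deprived of cytokine. The probe shown above (NM_207680) gave 117 and 126 with vector and 138 and 131 with ESlncRNA. The ESlncRNA values were both higher, by less than the values of most members moved. The log2 ratio was 0.14 ± 0.13 (SD, n = 2 arrays), with a 95% interval from -0.0012 to 0.29, and it did not pass (limma adjusted p = 0.0779). It was called higher with median centring, which put it at 0.30, and the processed signals gave 0.52 (limma adjusted p = 0.0540). The median-centred fit gave every member the same standard error, 0.0848, so that call does not reflect the scatter of the Bcl2l11 probe. The Bcl2l11 comparisons below use the loess ratios unless stated. Its ratio lay 1.26 and 1.17 above that of Bcl2 on replicates 1 and 2, 1.29 and 0.997 above that of Bcl2l1, and 0.85 and 0.67 above that of the brighter Mcl1 probe, all with loess. With median centring Bcl2l11 stood at 0.30, against 0.10 and 0.30 for the Mcl1 probes, so its gap to Mcl1 depends on the scaling and the probe.

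**Figure D2:**
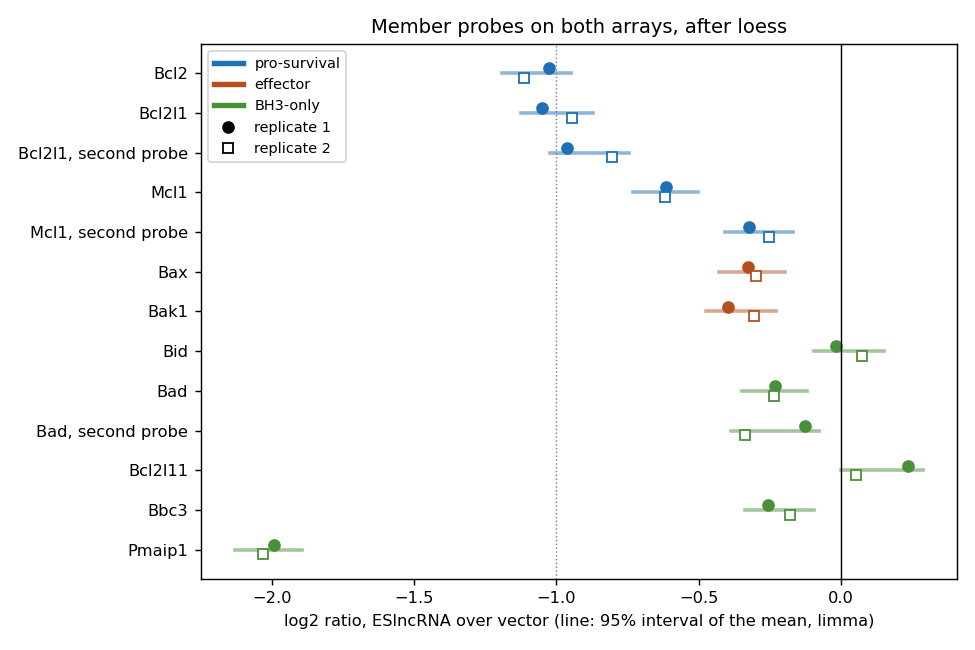
Log2 ratio of ESlncRNA over vector for the 13 member probes after loess, coloured by role, with a circle for replicate 1, a square for replicate 2 and a line for the 95% interval of the mean; the dotted line marks a 2-fold fall. Pmaip1 lies near -2.01, Bcl2 and Bcl2l1 near -1.07 and -0.997, and the other members lie within 0.62 of 0; with median centring Mcl1, Bax, Bak1, Bad and Bbc3 move above 0.

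By size, with loess, 2 members, Bcl2 and Pmaip1, were at least 2-fold lower on both arrays, as were 8.10% of all genes tested, and 0 members were at least 2-fold higher, against 0.604% of all genes. Bcl2l1 missed this rule on replicate 2 alone (-0.94), and the mean of Bcl2 itself was short of 2-fold by median centring (-0.67) and by the processed signals (-0.99). By role, the 3 pro-survival genes all fell (median -0.997), both effectors fell (median -0.33), and of 5 BH3-only genes 3 fell and 2 did not pass (median -0.22), all with loess. By probe, 11 of 13 were lower, against 35.8% of all probes tested, and 0 were higher, against 25.8%.

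The scaling of the arrays shifted the members by more than the spread between replicates. Loess takes the middle of the genes at each brightness as unchanged, while median centring moves every gene of an array by 1 amount. With median centring the median of all genes tested was 0.34, and the housekeeping gene Actb stood at 1.54, against 0.40 with loess and -0.0013 with the processed signals. Gapdh and Hprt stood at 0.31 and 0.22 with loess. Relative to the median of all genes, Bcl2 stood at -1.04, -1.01 and -1.11 under loess, median centring and the processed signals in that order, and Bcl2l1 at -0.97, -0.74 and -0.95. Mcl1 was at -0.59, -0.24 and -0.62 on that relative scale. Bax (-0.28, 0.11 and -0.30) and Bak1 (-0.32, 0.05 and -0.33) changed sign even there, and so did Bad, Bbc3 and Bcl2l11.

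**Figure D3:**
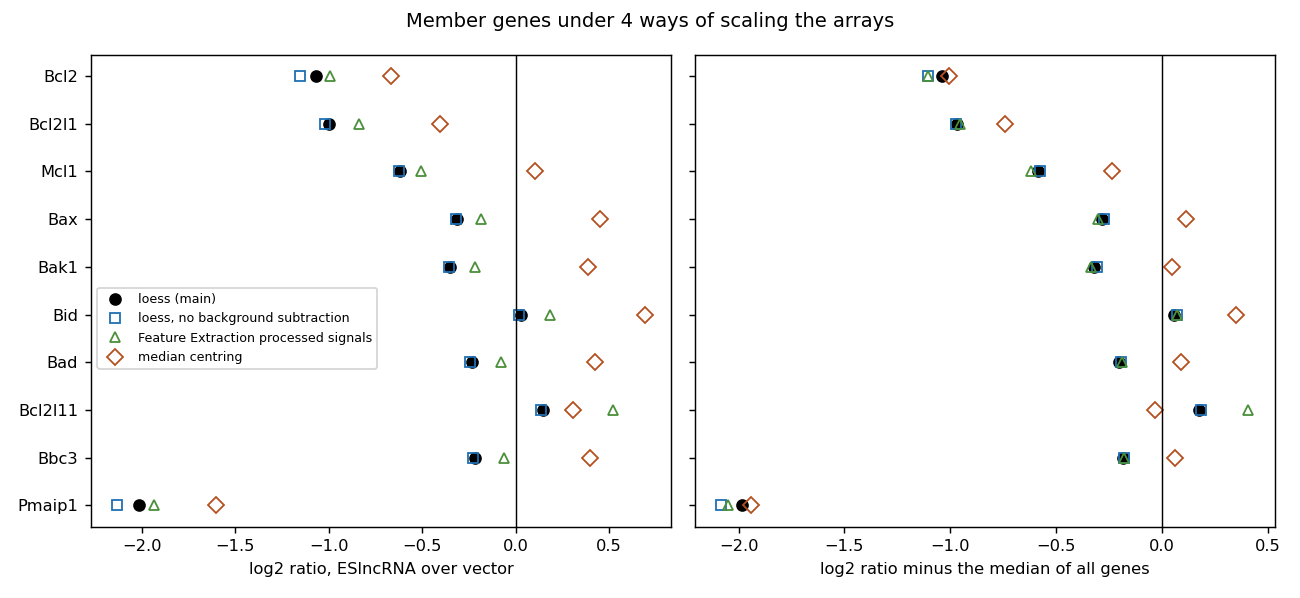
Log2 ratio of ESlncRNA over vector of the 10 members under 4 ways of scaling the arrays (circles loess, squares loess without background subtraction, triangles Feature Extraction's processed signals, diamonds median centring), as such on the left and minus the median of all genes tested on the right. Pmaip1, Bcl2 and Bcl2l1 lie below 0 under all 4 in both panels, while Bax, Bak1, Bad and Bbc3 lie above 0 with median centring in both panels.

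Other genes of the family went both ways. Of 16 in a list of further BCL2 relatives 14 had probes and 11 were bright enough, of which 7 were lower, 2 higher and 2 did not pass with loess (median -0.29), beside 36.8% lower and 26.3% higher over all genes. With median centring 4 were lower and 4 higher (median 0.08), beside 18.3% and 62.9% of all genes. With loess over the 8 that were above background in both channels 4 were lower and 3 higher, beside 34.2% and 29.0% of all genes so filtered. Bmf, a BH3-only gene tied to the cytoskeleton, gave 219 and 208 with vector and 90.1 and 89.5 with ESlncRNA, a ratio of -1.25 ± 0.044 (SD, n = 2 arrays; limma adjusted p = 2.79e-06). Bok, a relative of the effectors, was not well above background with ESlncRNA (178 and 161 against 76.4 and 72.4) and was, with loess, at least 2.28-fold lower, which here is also its measured fold (limma adjusted p = 3.60e-06). The Bcl2a1d probe, which by the array's own accessions also matches Bcl2a1a and Bcl2a1b, belongs to the pro-survival A1 genes of leukocytes. With loess it was at least 1.98-fold lower (145 and 146 against 67.0 and 72.0, limma adjusted p = 6.78e-06), and Bcl2l14 at least 1.61-fold lower (117 and 120 against 67.6 and 71.3, limma adjusted p = 2.50e-05). Such a bound divides the mean of the bright channel by the dim one, or by the faintest signal that counts as well above background where that is larger; it uses channel values after loess and Aquantile, in which dye bias can remain, and it holds for that scaling only. With loess, most tested markers of granulocytes, macrophages, megakaryocytes, mast cells and lymphocytes were lower too, as were 36.8% of all genes. Any link of those cells to Bmf, Bok, Bcl2a1d or Bcl2l14 was not tested.

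In the other direction, Bcl2l15 gave 253 and 248 with vector and 402 and 442 with ESlncRNA, a ratio of 0.75 ± 0.12 (SD, n = 2 arrays; limma adjusted p = 6.97e-05). The other probes of Bcl2l15 were too dim to test, as was another probe each of Bcl2l2 and Bcl2l14. Bcl2l13, a mitochondrial outer membrane relative, was at 0.17 (limma adjusted p = 0.0298), a call that was lost without background subtraction (adjusted p = 0.0729), with a normexp offset of 0, with the deposited values (0.108) and without the pairing of the channels (0.109). Bcl2l2, which encodes the pro-survival BCL-W, was at -0.29 with loess and at 0.08 with median centring. Bnip3, an atypical member of mitophagy, was at -0.41 by its brightest probe with loess and at 0.17 with median centring, while its other 2 probes gave -0.04 and 0.02. Bmf, Bok, Bcl2a1d and Bcl2l14 were lower also with median centring (-1.07, -1.06, -0.97 and -0.71), and the processed signals put them at -2.28, -2.94, -3.71 and -3.34. The size of the change in these dim probes thus depends on how the signals were processed, and the median-centred falls of Bok and Bcl2a1d are smaller than the folds given above.

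Genes that act with the family at and below the mitochondrion went both ways. All 20 of this list were tested with loess, and 10 were higher, 4 lower and 6 did not pass (median 0.07), beside 26.3% higher and 36.8% lower over all genes. With median centring 17 were higher and 0 lower (median 0.78, against 0.34 for all genes), beside 62.9% and 18.3% of all genes. Xiap, an inhibitor of caspases, gave 2334 and 2679 with vector and 1493 and 1789 with ESlncRNA, a ratio of -0.61 ± 0.043 (SD, n = 2 arrays; limma adjusted p = 8.14e-05). Apaf1, the scaffold of the apoptosome, gave 791 and 807 against 612 and 619, a ratio of -0.38. Tmbim6, a membrane protein of the endoplasmic reticulum that restrains cell death, stood at -0.52. With median centring Xiap, Apaf1 and Tmbim6 were at -0.09, 0.04 and 0.14, so that Apaf1 and Tmbim6 changed sign. All of them then failed the test (limma adjusted p = 0.336, 0.671 and 0.132). Apaf1 also did not pass with the processed signals (-0.17, limma adjusted p = 0.0556).

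Diablo, whose product relieves caspases of XIAP, gave 3049 and 2843 with vector and 4099 and 3674 with ESlncRNA, a ratio of 0.40 ± 0.040 (SD, n = 2 arrays; limma adjusted p = 5.96e-04). Htra2, a mitochondrial protease, stood at 0.34, and Moap1, a partner of BAX, at 0.37. Diablo, Htra2 and Moap1 were higher also by median centring (0.98, 1.27 and 0.78) and by processed signals (0.44, 0.38 and 0.70). Cycs and Casp9, which encode cytochrome c and the caspase of the apoptosome, were among the 6 that did not pass with loess, and were named after their values were seen (0.01 and -0.03). With median centring both were called higher (0.91 and 0.52).

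**Figure D4:**
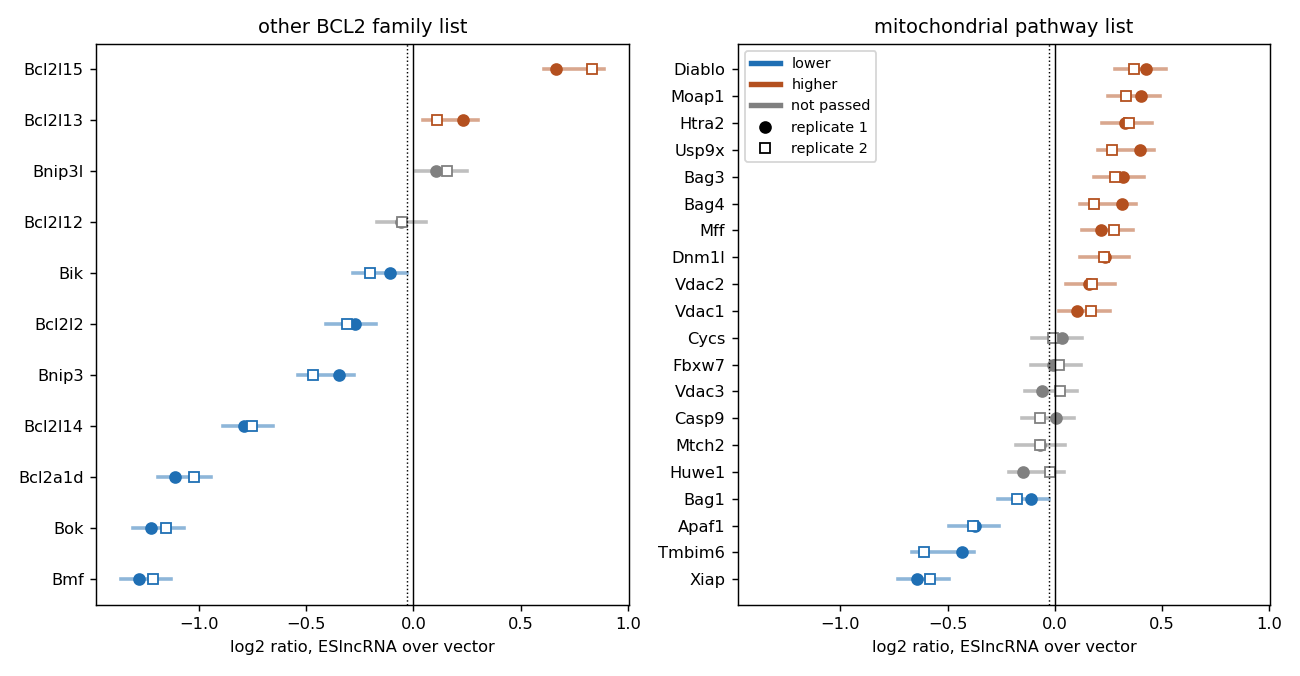
Log2 ratio of ESlncRNA over vector after loess for the further BCL2 relatives (left) and the mitochondrial pathway genes (right), with a circle for replicate 1, a square for replicate 2, a line for the 95% interval of the mean (blue lower, orange higher, grey not passed) and a dotted line at the median of all genes (-0.03). Bmf and Bok lie lowest on the left, at -1.25 and -1.19, and the right panel spans -0.61 (Xiap) to 0.40 (Diablo); with median centring Bcl2l2, Bnip3, Apaf1 and Tmbim6 lie above 0.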

How the data were processed

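Per the labels' protocols, total RNA (100 ng for replicate 2) was amplified and labelled by QuickAmp. Feature Extraction 10.1.1.1 read the scans, per the file headers. The deposited intensities used are the mean signal and median local background of each spot. Its processed intensities, corrected for background and dye per the file headers, were an alternative, and the deposited log10 ratios served as a check of direction (r = 0.986 and 0.992 with the processed ratio). The authors' deposited log2 values, for which the submitters' processing notes name limma without a version, had medians of -0.02 and -0.01 and correlated at r = 0.99996 on both arrays with log2 ratios from loess without background subtraction, which gave their scale and direction.

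Here signals were corrected with normexp (offset 50) and normalized by loess in R 4.3.3 with limma 3.58.1. Control spots and the 284 and 308 spots marked as outliers, of 59305, had weight 0, and 0 spots were saturated. Median signals were 35.9 and 39.5 (vector) and 67.8 and 76.3 (ESlncRNA), and 44.4% to 52.1% of spots were well above background. Probes whose signal stood well above background on both arrays in 1 channel or both, 26802 in all, were fitted with an intercept (1 residual and 5.25 prior degrees of freedom), with Benjamini-Hochberg adjustment over all of them. A gene stands for its brightest probe. RefSeq names (GRCm38.p6) came by accession for 26413 probes, by symbol for 3859 and by older symbol for 735, and 24674 kept the file's name. Normalized intensities are channel values after loess and Aquantile.

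The rule for named genes was every member, up to 8 further relatives and 6 pathway genes that passed with 1 sign on both arrays by smallest p, 2 markers per list and 3 housekeeping genes. Members and lists were chosen with earlier results of these data known. The fit was tested on simulated data. The number of arrays limits the precision.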

Additional observations from a re-analysis of the deposited data

How the results depend on the processing

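Median centring changed most, and its fit gave every member the same standard error (0.0848), whatever the scatter of its probe. With it 3 members were lower and 6 higher, the member median was 0.34, and 3639 of all genes were lower and 12511 higher (7311 and 5222 with loess), so that 77.5% of calls were higher in place of 41.7%. Mcl1 was then at 0.10, Bax at 0.45, Bak1 at 0.38, Bad at 0.43, Bbc3 at 0.40 and the second probes of Mcl1 and Bad at 0.30 and 0.17. With the processed signals 5 members were lower, 4707 of all genes were lower, 59.1% of calls were higher and the member median was -0.20. Without the replicate block, with the channels as unpaired samples, 7 members were lower (Bbc3 was lost) and 0 higher. Of all genes 5737 (28.9%) were then lower and 3446 (17.3%) higher. The causes were not tested. Without background subtraction, with offset 0, the deposited values, no filter, both channels above background, outlier spots kept or the mean of a gene's probes, 8 members were lower and 0 higher. Of all genes, from 20.4% (no filter) to 37.1% (mean of a gene's probes) were lower in these alternatives. From 15.2% (no filter) to 29.0% (both channels above background) were higher. Bcl2, Bcl2l1 and Pmaip1 kept direction and call in all 10 alternatives that have a test. Single arrays included, they ranged from -1.18 to -0.67, from -1.05 to -0.40 and from -2.20 to -1.60. Leaving out 1 array leaves no test. The member median was then -0.36 to -0.30, and Bid was at -0.017 without replicate 2 and 0.073 without replicate 1. No fit with slide as a block was possible, since both arrays lay on 1 slide.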

Other observations

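Bnip3l encodes NIX, the atypical family member by which maturing red cells clear their mitochondria, and it is named here, with its values known, because its 4 probes disagreed. Its brightest probe gave 13062 and 13608 with vector and 14070 and 15155 with ESlncRNA, a log2 ratio of 0.13 that did not pass (limma adjusted p = 0.0538). The other probes gave 0.20 (limma adjusted p = 0.0156), 0.05 (limma adjusted p = 0.416) and -0.15 (limma adjusted p = 0.0464), so that the probes that passed had opposite signs. No direction can be given for Bnip3l from these arrays.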
